A study of Homo sapiens with 14 samples.

Results

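The genes described here were gained in every KMT2D-KO library of the study: each had at least 0.5 CPM in all 8 KMT2D-KO libraries, and its lowest KMT2D-KO value was at least 3 times its highest value in the 6 KMT2D-WT libraries. CPM is the count of a gene scaled to a library total of 1e6 counts. Of the 59471 gene names in the count tables, 39032 had a count in at least 1 library, 12739 reached 0.5 CPM in all 8 KMT2D-KO libraries, and 124 of these met the rule, a share of 0.973%. With the genotypes exchanged, 40 of the 13699 genes that reached 0.5 CPM in all 6 KMT2D-WT libraries met it, a share of 0.292%. The members were chosen by their KMT2D-KO and KMT2D-WT levels, so the difference between the genotypes is given as a description and was not tested.

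The study sequenced polyadenylated RNA of SCC23, an established cell line of head and neck squamous cell carcinoma, in 2 experiments. KMT2D-WT cells had received a Cas9-GFP plasmid with a guide against the bacterial gene LacZ, and 2 KMT2D-KO lines had received it with sgKMT2D-1 (KO1) or sgKMT2D-2 (KO2) in place of that guide. Transfected cells were sorted by GFP and no cloning from single cells was described, so a line may hold cells with different edits. Cells were kept in high-glucose medium (+Glc, 3 KMT2D-WT and 4 KMT2D-KO libraries) or for 6 h in medium without glucose (−Glc, 3 KMT2D-WT and 4 KMT2D-KO libraries). By the labels, each condition held 1 KO1 and 1 KO2 library from each experiment, which is in doubt for 1 library as described below.

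KMT2D is a histone methyltransferase that marks enhancers and helps to activate genes of differentiated cells. Its gene is often mutated in squamous cell carcinoma. Genes that epithelial cells keep silent often belong to neural, lymphoid, or embryonic programs, in which homeobox factors, axon guidance receptors, and ion channels are used.

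Total counts ranged from 15669154 to 62968057 per library, with the 4 highest totals in the +Glc libraries of experiment 2, in which both mates of a read pair had been counted. KMT2D itself had 247 to 296 CPM in the 6 KMT2D-WT libraries. In +Glc cells it had 189 and 196 CPM in line KO1 and 324 and 376 CPM in line KO2, and in −Glc cells it had 17.5 CPM in KO1 of experiment 1 and 128 to 164 CPM in the other 3 KMT2D-KO libraries. Its transcript was above KMT2D-WT in line KO2 with glucose, so its level does not check the edit there. The study reported KMT2D mutations in the edited SCC23 cells by genomic sequencing and the knockout by western blot. The squamous identity of the cells held in both genotypes: 12 of 13 markers reached 0.5 CPM in every library of each genotype, and their summed level was 4064 to 4980 CPM in KMT2D-WT and 3461 to 5262 CPM in KMT2D-KO libraries. The 8 fibroblast markers summed to 3.54 to 7.55 CPM in KMT2D-WT and 6.53 to 28.6 CPM in KMT2D-KO libraries. In KMT2D-KO libraries the 7 haematopoietic markers summed to 0.338 to 1.51 CPM, the 5 endothelial markers to 0.404 to 4.28 CPM, the 6 neuronal markers to 5.11 to 16.9 CPM, and the 4 melanocyte markers to 0.608 to 3.04 CPM. In KMT2D-WT libraries these 4 lists summed to 0.884 to 1.92, 0.423 to 1.25, 7.50 to 17.6, and 0.937 to 3.62 CPM, with PTPRC, KDR, STMN2, and TYR at 0. The part of other cell types in the gains was not tested.

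The −Glc libraries of experiment 2 need care. The 2 KMT2D-KO libraries are labelled KO1 and KO2, but the command lines stored with both name line KO2, and their counts differed by a chi-square of 1.78 per gene. The 2 KMT2D-WT libraries of that condition differed by 1.71 per gene, and the other pairs of the same group and experiment by 25.9 to 83.0 per gene. Each pair was kept as separate libraries, and the glucose tests within each genotype are also given with the close pairs summed. The study calls the 2 experiments independent. Within experiment 2 nothing states that libraries of the same group came from separate cultures, so p-values that rest on their spread may measure technical spread.

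Silence in KMT2D-WT cells came in grades. No count was found in any of the 6 KMT2D-WT libraries for 7 members, LPCAT2, KCNK5, DLX5, ELAVL2, TSNARE1, CDK20, and PLXDC2. A further 27 members had 1 to 3 counts in their highest KMT2D-WT library, and 59 had more than 3 counts but stayed below 0.5 CPM in every KMT2D-WT library. The highest KMT2D-WT value lay between 0.5 and 1 CPM for 13 members and at 1 CPM or more for 18. Together, 93 of 124 members (75%) stayed below 0.5 CPM in every KMT2D-WT library. No count was found for 50 and 51 members in the KMT2D-WT libraries of experiment 1 and for 25 to 31 in those of experiment 2. Totals were lower in experiment 1, and depth and experiment cannot be told apart. A count of 0 allows up to 3 counts, which is 0.141 CPM in the shallowest KMT2D-WT library and covers counting error only. No member was at 0 in any KMT2D-KO library.

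In the KMT2D-KO libraries most members had a low to moderate level. The median over the 124 members was 0.0447 to 0.127 CPM in the KMT2D-WT libraries and 2.78 to 5.54 CPM in the KMT2D-KO libraries. Their summed level was 84.3 to 98.7 CPM in KMT2D-WT and 1005 to 1222 CPM in KMT2D-KO libraries. The median over the KMT2D-KO libraries was at least 10 CPM for 26 members and under 2 CPM for 30. The 34 members with at most 3 counts in every KMT2D-WT library had median KMT2D-KO levels of 0.882 to 10.2 CPM, and the 18 that reached 1 CPM in KMT2D-WT cells had 5.12 to 306.5 CPM. The 3-fold limit sets a higher floor for the latter, so this order is partly built into the rule.

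**Figure D1:**
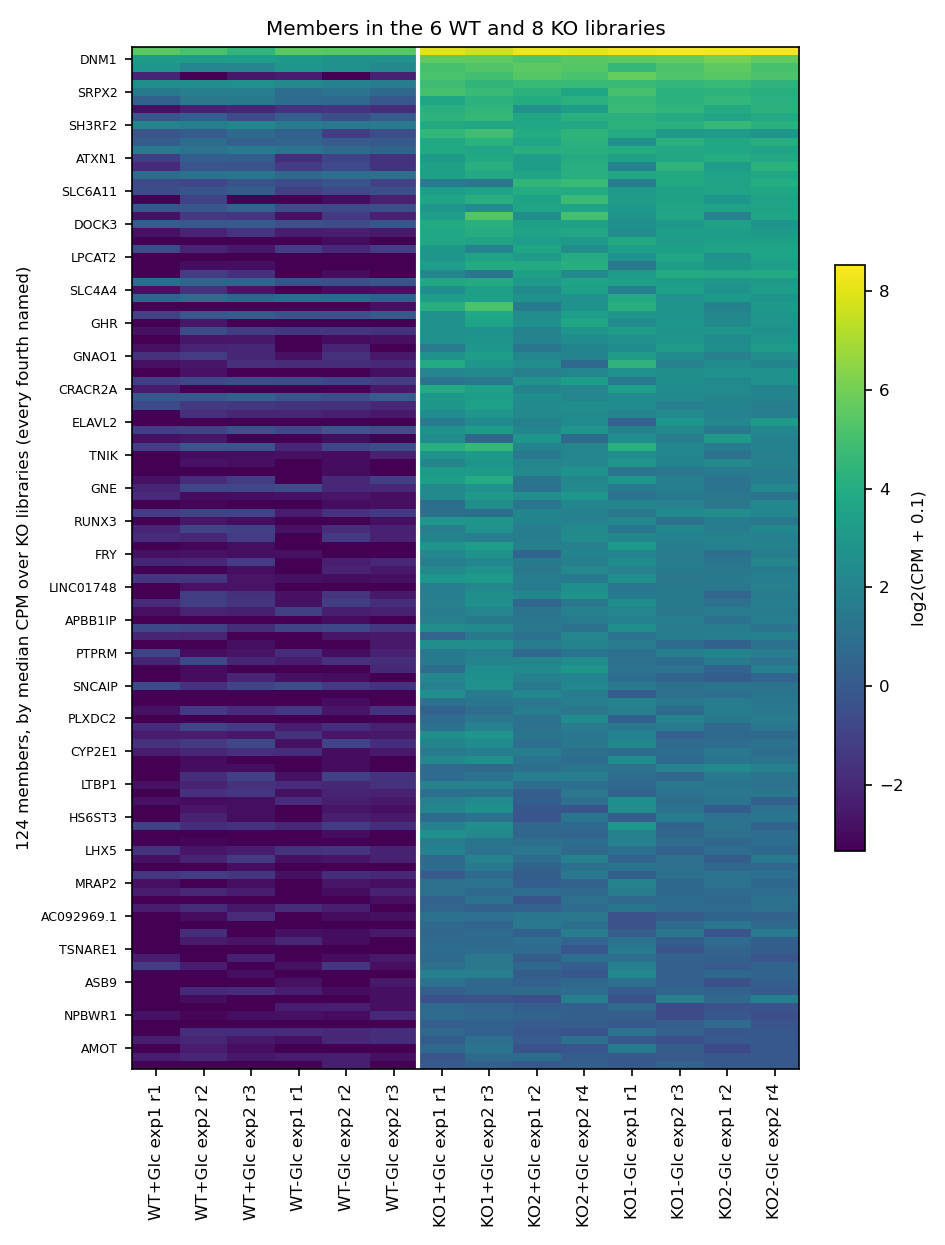
Each row is 1 of the 124 members, ordered by its median level in the KMT2D-KO libraries, and each column 1 of the 14 libraries; the color is log2(CPM + 0.1). The line parts the 6 KMT2D-WT libraries, where the members' median was 0.0447 to 0.127 CPM, from the 8 KMT2D-KO libraries, where it was 2.78 to 5.54 CPM.

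Some genes lay close to the limits of the rule. Nearest to the 3-fold limit on the inside were PRKCQ, SPX, and SH3RF2, whose lowest KMT2D-KO value was 3.01, 3.09, and 3.11 times the highest KMT2D-WT value. FNDC10, OSBPL6, and BACE2 lay just outside at 2.91, 2.83, and 2.75 times. At the limit of 0.5 CPM, ALX1, AMOT, and NPBWR1 were inside with lowest KMT2D-KO values of 0.508, 0.532, and 0.551 CPM. TBL1X, a subunit of nuclear receptor corepressor complexes, lay just outside, as did ARHGEF6 and PDE11A. It had no count in any KMT2D-WT library, 0.447 CPM from 7 counts in KO1 with glucose in experiment 1, and 1.82 to 9.69 CPM in the other 7 KMT2D-KO libraries. TBL1X is therefore not a member, although it was counted in every KMT2D-KO library and in no KMT2D-WT library.

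**Figure D2:**
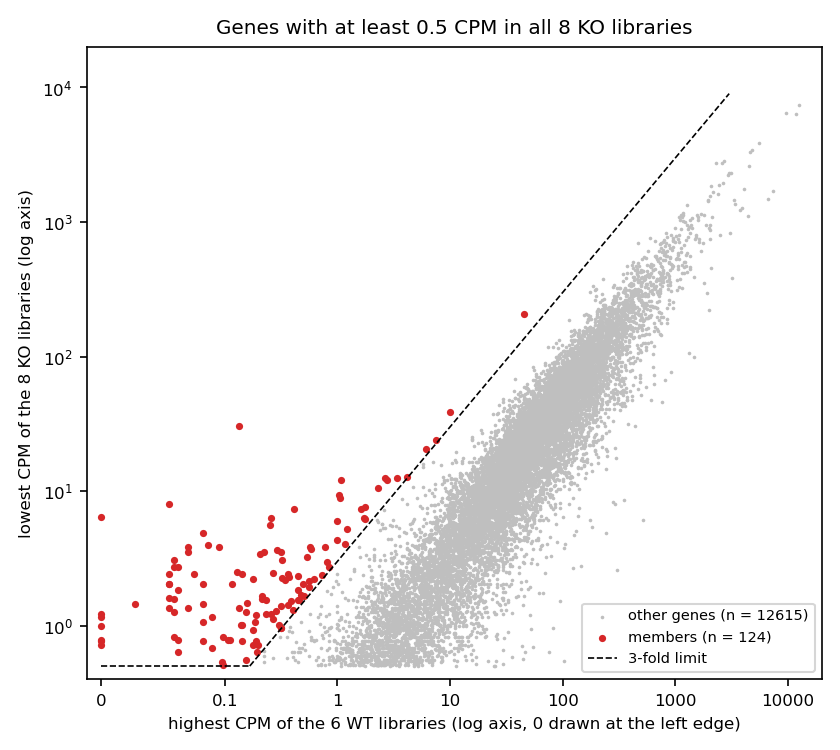
Lowest CPM of the 8 KMT2D-KO libraries (log axis) against the highest CPM of the 6 KMT2D-WT libraries (log axis, with 0 drawn at the edge) for the 12739 genes with at least 0.5 CPM in all 8 KMT2D-KO libraries. The 124 members lie beyond the 3-fold limit, and 7 of them sit at 0 in KMT2D-WT cells.

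Promoters of 5 members are shown because these genes were silent or nearly silent in KMT2D-WT cells and span the range from dense to sparse in CpG, the dinucleotide at which vertebrate DNA is methylated. The sequences are RefSeq promoters of GRCh38.p14, from 250 bases before to 50 bases after the start, written 5′ to 3′ on the strand of the gene with each CpG in capitals. A RefSeq promoter was found for 95 of the 124 members. GALNT14 (chr2:31138391-31138690, minus strand), ELAVL2 (chr9:23826191-23826490, minus strand), and KCNK5 (chr6:39229426-39229725, minus strand) hold 35, 20, and 39 CpG. GJA1 (chr6:121435396-121435695, plus strand) and LCP1 (chr13:46182128-46182427, minus strand) hold 3 and 2 CpG.
GALNT14: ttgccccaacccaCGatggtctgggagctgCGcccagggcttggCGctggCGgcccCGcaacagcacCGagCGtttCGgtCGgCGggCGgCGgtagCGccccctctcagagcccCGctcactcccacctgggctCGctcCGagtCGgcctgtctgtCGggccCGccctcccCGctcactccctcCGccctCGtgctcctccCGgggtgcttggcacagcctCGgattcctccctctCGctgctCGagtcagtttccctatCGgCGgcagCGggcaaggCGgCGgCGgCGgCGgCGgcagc
ELAVL2: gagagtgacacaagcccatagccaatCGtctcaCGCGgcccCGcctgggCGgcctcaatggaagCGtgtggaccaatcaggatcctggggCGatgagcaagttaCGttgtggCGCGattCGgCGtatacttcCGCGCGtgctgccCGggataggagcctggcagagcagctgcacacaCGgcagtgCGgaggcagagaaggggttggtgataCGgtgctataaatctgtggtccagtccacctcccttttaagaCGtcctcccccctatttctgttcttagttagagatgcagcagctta
KCNK5: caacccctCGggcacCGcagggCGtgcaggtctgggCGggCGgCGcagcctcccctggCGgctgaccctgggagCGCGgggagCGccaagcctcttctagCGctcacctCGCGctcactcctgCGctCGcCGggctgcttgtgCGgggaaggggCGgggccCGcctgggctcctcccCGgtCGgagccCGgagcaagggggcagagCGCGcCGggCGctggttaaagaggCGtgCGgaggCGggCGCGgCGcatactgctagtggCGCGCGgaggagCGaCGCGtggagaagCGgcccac
GJA1: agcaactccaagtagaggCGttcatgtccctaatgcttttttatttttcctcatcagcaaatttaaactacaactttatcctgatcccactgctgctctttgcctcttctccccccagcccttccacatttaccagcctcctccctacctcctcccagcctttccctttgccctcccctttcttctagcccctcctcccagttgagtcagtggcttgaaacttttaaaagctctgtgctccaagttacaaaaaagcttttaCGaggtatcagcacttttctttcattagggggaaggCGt
LCP1: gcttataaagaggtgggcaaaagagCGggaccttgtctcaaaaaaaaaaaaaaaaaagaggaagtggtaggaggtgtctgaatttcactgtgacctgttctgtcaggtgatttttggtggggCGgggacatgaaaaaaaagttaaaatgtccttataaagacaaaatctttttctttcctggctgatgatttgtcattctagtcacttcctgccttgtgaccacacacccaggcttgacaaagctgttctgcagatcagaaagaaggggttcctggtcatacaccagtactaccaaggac

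The enzymes among the members numbered 14, and LPCAT2 was the clearest switch. It encodes a lysophosphatidylcholine acyltransferase that makes platelet-activating factor and remodels membrane phospholipids, and lies on chromosome 16 from 55509072 to 55586666 on the plus strand. LPCAT2 had no count in any of the 6 KMT2D-WT libraries. In +Glc cells it had 7.15 and 11.1 CPM in KO1 and 9.19 and 15.4 CPM in KO2, in the order of the experiments. In −Glc cells it had 6.41 and 12.5 CPM in the libraries labelled KO1 and 6.72 and 11.5 CPM in those labelled KO2. Every KMT2D-KO value was at least 45.6-fold higher than KMT2D-WT, set against a floor of 3 counts in the shallowest KMT2D-WT library. Of the 18 genes listed for lysophospholipid acylation and platelet-activating factor, 16 reached 0.5 CPM in all KMT2D-KO libraries, and LPCAT2 alone met the rule.

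GALNT14, which starts mucin-type O-glycans on proteins, went further from near silence. It had 0.134, 0, and 0.0715 CPM in +Glc and 0.0937, 0, and 0.115 CPM in −Glc KMT2D-WT cells. In KMT2D-KO cells it had 30.4 to 41.9 CPM with glucose and 37.2 to 51.9 CPM without. Its lowest KMT2D-KO value was 227 times its highest KMT2D-WT value. The other 12 enzymes were B4GALNT3 and GXYLT2, glycosyltransferases, MAN1A1, a Golgi mannosidase, HS6ST3, a heparan sulfate sulfotransferase, GNE, the entry enzyme of sialic acid synthesis, ACSS1, the mitochondrial acetyl-CoA synthetase, NMNAT3 of NAD synthesis, GMPR, a purine reductase, PLPP3, a lipid phosphatase, CYBB, the catalytic subunit of the phagocyte oxidase, and the cytochromes P450 CYP1A1 and CYP2E1. Median KMT2D-KO levels of the enzymes ran from 1.38 to 37.5 CPM, and 12 of 14 stayed below 0.5 CPM in every KMT2D-WT library.

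Transcription and chromatin factors numbered 13, and 8 of them stayed below 0.5 CPM in every KMT2D-WT library. DLX5, a homeobox factor of craniofacial development, had no count in KMT2D-WT cells, 1.36 to 2.58 CPM in +Glc and 0.718 to 2.42 CPM in −Glc KMT2D-KO cells. BACH2, a leucine zipper repressor known from lymphocytes, had at most 0.0357 CPM in KMT2D-WT and 1.58 to 4.93 CPM in KMT2D-KO libraries. SATB1, which organizes chromatin in T cells, had 0.0318 to 0.179 CPM in KMT2D-WT and 2.21 to 8.10 CPM in KMT2D-KO libraries. RUNX3, a runt-domain factor of lymphocytes and neurons, had at most 0.0635 CPM in KMT2D-WT and 2.03 to 7.02 CPM in KMT2D-KO libraries. Among the others were the homeobox factors ALX1 and LHX5, and TOX2, ZBTB10, HIVEP3, CDYL2, ATXN1, and ZNF597. ZNF597 was the only one of 559 genes with a ZNF symbol and of 35 listed imprinted genes to meet the rule.

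ELAVL2, a neuronal protein that binds AU-rich elements of messenger RNAs, was the single RNA-binding member assigned to that group. It had no count in any KMT2D-WT library. In +Glc KMT2D-KO cells it had 2.94 and 4.94 CPM in KO1 and 3.55 and 5.37 CPM in KO2. Without glucose it had 1.22 and 7.33 CPM in the libraries labelled KO1 and 4.54 and 8.17 CPM in those labelled KO2. Every value was at least 8.65-fold higher than KMT2D-WT against the same floor.

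Receptors numbered 15. GHR, the growth hormone receptor, had 0.0635 CPM in 1 KMT2D-WT library and 0 in the other 5. In +Glc cells GHR had 6.64 and 11.7 CPM in KO1 and 5.98 and 13.0 CPM in KO2, and in −Glc cells 4.88 to 7.28 CPM. FGFR4, a fibroblast growth factor receptor kinase, already had 3.04 to 6.15 CPM in KMT2D-WT cells and held 20.6 to 28.4 CPM in the KMT2D-KO libraries. Its highest KMT2D-KO value was 1.38 times the lowest, the narrowest range of all 124 members. SORCS2, a sorting receptor of the VPS10 family, had 4.13 to 7.46 CPM in KMT2D-WT and 23.8 to 47.7 CPM in KMT2D-KO libraries. The others were SIRPA, the receptor of CD47, ROBO1, the receptor of SLIT proteins, NRP1, a coreceptor of semaphorins and VEGF, the complement receptor CR2, the class II antigen chain HLA-DQB1, CD38, ROR1, PTPRM, PLXDC2, NPBWR1, RTN4RL2, and ACVR1C. Median levels of the receptors ran from 0.946 to 38.2 CPM, and 9 of 15 stayed below 0.5 CPM in every KMT2D-WT library.

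Secreted and matrix proteins numbered 12. TGFBI, an extracellular matrix protein induced by TGF-β, was the strongest member and the least silent one before. It had 45.2, 34.9, and 22.4 CPM in +Glc and 44.9, 43.6, and 43.0 CPM in −Glc KMT2D-WT cells. In KMT2D-KO cells it had 205 to 296 CPM with glucose and 317 to 367 CPM without, so the genotypes lay far apart although neither was near 0. SLIT2, a ligand of ROBO1, had at most 0.0769 CPM in KMT2D-WT and 1.16 to 5.49 CPM in KMT2D-KO libraries. ROBO1 itself had 0.644 to 1.74 CPM in KMT2D-WT and 7.59 to 15.0 CPM in KMT2D-KO libraries. EDA, the ectodysplasin that directs hair, tooth, and gland placodes, had at most 0.0476 CPM in KMT2D-WT and 3.50 to 6.57 CPM in KMT2D-KO libraries. The others were PTN, the heparin-binding growth factor pleiotrophin, LTBP1, which binds latent TGF-β, LAMC3, a laminin chain, ADAMTS3, SRPX2, OAF, WFDC2, NELL2, and SPX.

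Proteins of intracellular signalling numbered 15, and 12 of them stayed below 0.5 CPM in every KMT2D-WT library. They were the kinases CDK18, CDK20, CAMK4, PRKD1, PRKCQ, TNIK, and WNK2, the phospholipase PLCB1 and its inactive relative PLCL2, the G-protein subunit GNAO1, the arrestin ARRB1, the calcineurin regulator RCAN2, the Rag GTPase RRAGD of the amino acid pathway to mTORC1, the endocytic adaptor DAB2, and APBB1IP. Their median KMT2D-KO levels ran from 1.06 to 18.5 CPM. RRAGD had at most 0.0644 CPM in KMT2D-WT and 0.769 to 5.97 CPM in KMT2D-KO libraries.

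The 6 members of the cytoskeleton were LCP1, SPATA13, EML1, DOCK3, FRY, and DYNC1I1. LCP1, the actin bundler L-plastin of white blood cells, had 0.0447 to 0.257 CPM in KMT2D-WT and 6.27 to 26.4 CPM in KMT2D-KO libraries. SPATA13, a guanine nucleotide exchange factor, had at most 0.0357 CPM in KMT2D-WT and 2.71 to 17.4 CPM in KMT2D-KO libraries. Of its exonic bases 37.9% are shared with other genes, so part of its reads cannot be assigned to it with certainty.

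Channels and transporters numbered 11. The potassium channel KCNK5 had no count in KMT2D-WT cells, 2.94 to 5.42 CPM in +Glc and 0.995 to 2.34 CPM in −Glc KMT2D-KO cells, with no overlap between the KMT2D-KO groups by glucose. KCNC4, KCNT2, and KCNIP3 joined it, so that 4 of 96 genes with a KCN symbol met the rule, out of 14 that reached 0.5 CPM in all KMT2D-KO libraries. Of 381 genes with an SLC symbol 6 met it, among them SLC6A11, a GABA transporter, SLC4A4, a sodium bicarbonate cotransporter, SLC16A9, SLC38A4, and SLC22A17. SLC4A4 had at most 0.222 CPM in KMT2D-WT and 3.54 to 10.6 CPM in KMT2D-KO libraries. The sodium channel subunit SCN4B completed the group.

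Adhesion proteins were GJA1, CDH12, ADAM23, and PCDHB16. GJA1, the gap junction protein connexin 43, had at most 0.413 CPM in KMT2D-WT and 7.30 to 26.8 CPM in KMT2D-KO libraries. PCDHB16 belongs to a family of close copies and shares 24.9% of its exonic bases, so its level is uncertain. Vesicle traffic was represented by DNM1, the dynamin of synaptic vesicle recycling, SYTL3, RAB6B, MAL2, SYT17, and TSNARE1. DNM1 had 6.23 to 9.99 CPM in KMT2D-WT and 38.4 to 66.6 CPM in KMT2D-KO libraries.

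LINC01748, LINC01980, and MIR4500HG are annotated as long non-coding RNAs. AL445647.1 and AC092969.1 were placed in the same group, although their names were not matched to an annotated gene type. These 5 had median KMT2D-KO levels of 1.60 to 3.11 CPM. The remaining 22 members had medians of 0.890 to 16.3 CPM. They were SH3RF2, TMEM52B, SAMD5, ICA1, CGREF1, TMEM255A, CRACR2A, FAM155B, RTN1, SPATA6, DTX4, SNCAIP, NSG1, ATRNL1, HECW1, DTNA, MRAP2, GOLT1A, ASB9, POF1B, AMOT, and FAM189A2.

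**Figure D3:**
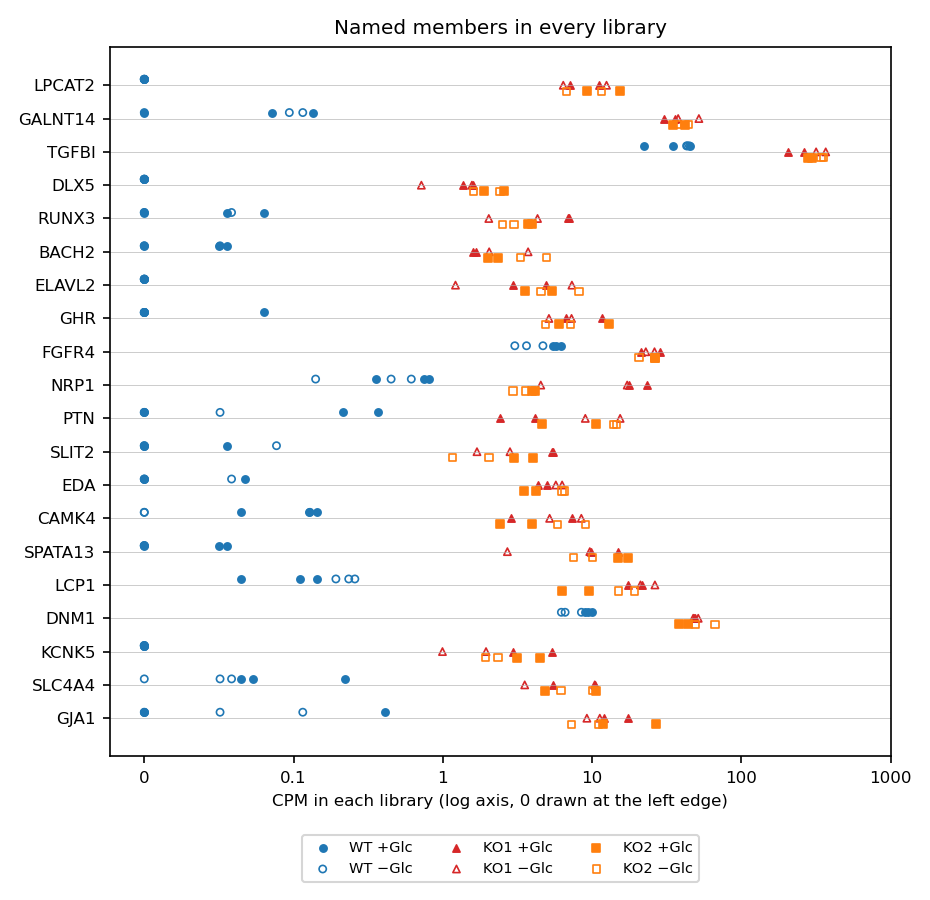
CPM (log axis) of 20 members in all 14 libraries, with 0 drawn at the left edge; circles are KMT2D-WT, triangles KO1, and squares KO2 as labelled, filled with glucose and open without. TGFBI, DNM1, and FGFR4 were already expressed in KMT2D-WT cells, and LPCAT2, DLX5, ELAVL2, and KCNK5 had no count there.

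Per length, TGFBI also led, with a median KMT2D-KO level of 39.7 CPM per kb of exonic length. GALNT14 had 8.62, SORCS2 6.04, PTN 6.03, FGFR4 5.45, SYTL3 4.96, and DNM1 4.50 CPM per kb. LPCAT2 had 1.38 and ELAVL2 0.923 CPM per kb.

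At least 1 gene list held 21 of the members. The list of neural development and synapse held 4 of 95, ELAVL2, ROBO1, SLIT2, and the cadherin CDH12, out of 18 that reached 0.5 CPM in all KMT2D-KO libraries. The list of growth factors and receptor kinases held FGFR4 and ROR1, 2 of 84. GHR was the single one of 12 genes of growth hormone receptor signalling, and SPATA13 of 9 genes around the ASEF exchange factors. No member was on 9 further lists, given with their genes that reached 0.5 CPM in all KMT2D-KO libraries. These were cancer-testis (2), HOX (22), mesenchymal and extracellular matrix (27), squamous differentiation (10), and interferon and antigen presentation (20). The others were cytokines (17), glycolysis (20), Wnt, BMP, Hedgehog and Notch (43), and the NCoR corepressor complex (5). TGFBI and HLA-DQB1 were not among the listed genes. Of all genes at that level 0.973% were members, so lists of this size can hold none for that reason alone. No member was among the marker lists of other cell types.

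The glucose response was tested within the KMT2D-KO libraries, which the rule had not compared with each other. All 124 members were tested by edgeR's quasi-likelihood test with experiment as a covariate and Benjamini-Hochberg adjustment over 16057 genes. At an adjusted p under 0.05, 8 members rose and 4 fell without glucose, where 14% of all genes tested rose and 16.0% fell. The median log2 change of the members was 0.03, with quartiles of −0.36 and 0.33, and that of all genes tested was 0.00. The other 112 members were not called, which does not show that they did not respond.

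The members that rose included signalling and matrix genes. Values follow the order KO1 then KO2 by label, and experiment 1 then 2 within each. PTN had 4.15, 2.42, 10.6, and 4.63 CPM with glucose and 9.01, 15.4, 13.9, and 14.6 CPM without. The groups overlapped through 1 +Glc library of line KO2, and PTN rose by 1.56 ± 0.45 on the log2 scale (SE; edgeR adjusted p = 0.0362). CAMK4, a calcium/calmodulin-dependent kinase, had 2.87, 7.38, 2.43, and 3.97 CPM with glucose and 5.19, 8.47, 5.85, and 8.98 CPM without. The groups overlapped, and CAMK4 rose by 1.04 ± 0.23 on the log2 scale (SE; edgeR adjusted p = 0.0152). BACH2 had 1.66, 1.58, 1.99, and 2.36 CPM with glucose and 2.04, 3.73, 4.93, and 3.30 CPM without, again with overlap, and rose by 1.08 ± 0.33 on the log2 scale (SE; edgeR adjusted p = 0.041). SH3RF2, an E3 ubiquitin ligase scaffold, had 12.8 to 14.6 CPM with glucose and 18.0 to 24.3 CPM without. The groups did not overlap, and SH3RF2 rose by 0.76 ± 0.12 on the log2 scale (SE; edgeR adjusted p = 0.0054). EDA had 3.50 to 5.00 CPM with glucose and 5.72 to 6.57 CPM without, also with no overlap, and rose by 0.75 ± 0.17 on the log2 scale (SE; edgeR adjusted p = 0.0165). TGFBI, DNM1, and GALNT14 rose by 0.60, 0.46, and 0.45 on the log2 scale, with edgeR adjusted p of 0.0164, 0.0379, and 0.0204.

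The 4 members that fell were a signalling protein, a chromatin factor, a channel-associated protein, and a receptor. PLCL2 had 4.40, 6.09, 3.65, and 3.98 CPM with glucose and 1.82, 1.31, 1.02, and 1.34 CPM without, and fell by 1.52 ± 0.28 on the log2 scale (SE; edgeR adjusted p = 0.00795). SATB1 had 4.85, 8.10, 5.54, and 7.27 CPM with glucose and 2.21, 2.88, 2.47, and 2.23 CPM without, and fell by 1.17 ± 0.20 on the log2 scale (SE; edgeR adjusted p = 0.00671). FAM155B, an accessory protein of a sodium leak channel, had 8.62, 8.70, 4.81, and 6.74 CPM with glucose and 2.43, 2.46, 2.95, and 3.12 CPM without, and fell by 1.19 ± 0.24 on the log2 scale (SE; edgeR adjusted p = 0.0108). In these 3 genes every −Glc value was below every +Glc value. SIRPA had 15.4 to 29.2 CPM with glucose and 7.35 to 15.7 CPM without, overlapping at 1 library, and fell by 0.96 ± 0.29 on the log2 scale (SE; edgeR adjusted p = 0.0419).

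Of all 124 members 83 had a change of the same sign in both experiments. The share over all genes tested was not computed, so this count shows nothing particular to the members. All 12 called members had the same sign in both, which their choice in a fit of both experiments largely fixes. Alone, neither experiment 1 nor the libraries labelled KO2 gave a call: edgeR called 0 members and 0 of all genes in each, with 9 and 14 members and 2527 and 3990 genes at an unadjusted p under 0.05. With experiment 2 alone 28 of 124 members and 9743 of 19210 genes were called. There the +Glc libraries were counted by both mates and the −Glc libraries were not, so that counting and glucose cannot be told apart. The fit of both experiments holds these libraries too, so the limit bears on its 12 calls in part. With the doubled counts halved 13 members and 4824 of 16066 genes were called, and with DESeq2 21 and 7051 of 16057. Without experiment as a covariate these were 4 and 1465 of 16057, and with the close libraries of experiment 2 summed 6 and 2282 of 16542. Summing lost the calls of PTN, BACH2, EDA, DNM1, GALNT14, and SIRPA, with edgeR adjusted p of 0.0819, 0.0962, 0.0517, 0.0731, 0.0641, and 0.159. Leaving out 1 library gave 4 to 20 called members: 20 without KO1 of experiment 1 among the −Glc libraries, 6 and 4 without the −Glc libraries labelled KO1 and KO2 of experiment 2, and 7 without each of the +Glc libraries but KO2 of experiment 1, without which there were 13. Scaling by library totals shifted the median of all genes by −0.20 on the log2 scale, with 1005 genes higher and 3893 lower in place of 2240 and 2573, and 4 members higher and 15 lower. DESeq2 gave 4261 genes higher and 2790 lower.

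None of the 7 members with no count in KMT2D-WT cells was called by edgeR for glucose. LPCAT2 had a log2 change of −0.03 ± 0.17 (SE; edgeR adjusted p = 0.898) without glucose and ELAVL2 of 0.42 ± 0.39 (SE; edgeR adjusted p = 0.431). The change was −0.36 ± 0.16 (SE; edgeR adjusted p = 0.117) for GHR, −0.79 ± 0.33 (SE; edgeR adjusted p = 0.101) for SPATA13, and −0.91 ± 0.35 (SE; edgeR adjusted p = 0.0848) for KCNK5. The nearly silent GALNT14, BACH2, EDA, and FAM155B were called, as given above.

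**Figure D4:**
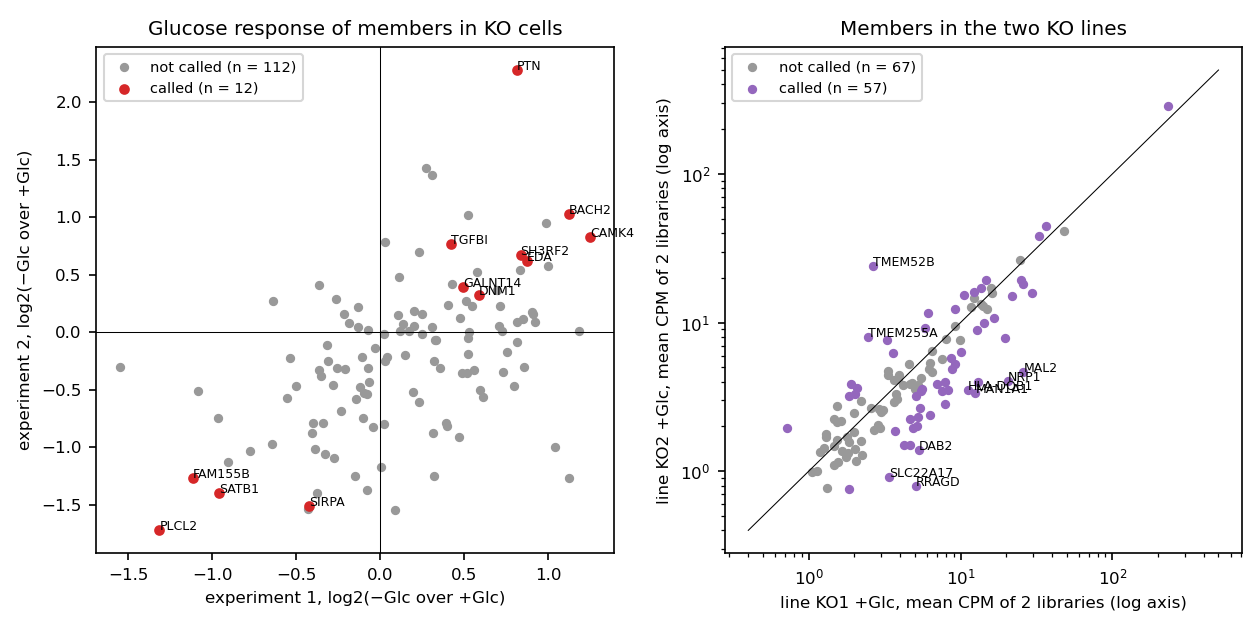
Left, log2 change without glucose in KMT2D-KO cells of each of the 124 members in experiment 1 and experiment 2, with the 12 called members marked. Right, level of the 124 members (CPM, log axes) in line KO2 against line KO1 with glucose, with the 57 members called between the lines marked; TMEM52B lies far above equal levels and RRAGD, MAL2, and NRP1 far below.

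In KMT2D-WT cells the same test covered 28 of the 124 members, since the other 96 did not pass the filter on low counts there. These 28 passed through their counts in KMT2D-WT cells and do not stand for all members. Of 17227 genes tested 7.15% rose and 7.58% fell without glucose, and DESeq2 gave 4014 genes higher and 2199 lower. ROBO1 was the 1 member called: it had 1.74, 1.30, and 1.23 CPM with glucose and 0.703, 0.644, and 0.730 CPM without, did not overlap, and fell by 1.02 ± 0.24 on the log2 scale (SE; edgeR adjusted p = 0.0461). In KMT2D-KO cells its log2 change was −0.24 ± 0.21 (SE; edgeR adjusted p = 0.383), and the difference between the genotypes was 0.80 ± 0.31 (SE; edgeR adjusted p = 0.141). Member calls in KMT2D-WT cells numbered 10 without either library of experiment 1 and 0 without any single library of experiment 2. The 10 calls came beside 8744 of 18430 genes without the +Glc and 8747 of 18377 genes without the −Glc library of experiment 1. In experiment 2 the +Glc KMT2D-WT libraries were counted by both mates and the −Glc ones were not. Counting and glucose cannot be told apart there, and with the doubled counts halved 1 member and 2614 of 17057 genes were called.

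The difference of the glucose response between the genotypes was tested in 1 fit of all 14 libraries over 18678 genes, a test added after the data had been seen. Of all genes 2.62% had a higher and 4.19% a lower log2 change in KMT2D-KO than in KMT2D-WT cells. Among the 28 members 4 were called, all with a higher log2 change in KMT2D-KO than in KMT2D-WT cells. The difference was 1.93 ± 0.44 (SE; edgeR adjusted p = 0.0229) for ATXN1, the ataxin-1 corepressor, and 1.26 ± 0.18 (SE; edgeR adjusted p = 0.00304) for SH3RF2. It was 0.91 ± 0.21 (SE; edgeR adjusted p = 0.0229) for DNM1 and 0.77 ± 0.20 (SE; edgeR adjusted p = 0.0364) for FGFR4. Of these, SH3RF2 and DNM1 were called within KMT2D-KO cells, and none was called within KMT2D-WT cells. The log2 changes without glucose in KMT2D-KO and KMT2D-WT cells were 0.38 and −1.44 for ATXN1 and 0.11 and −0.63 for FGFR4. They were 0.76 and −0.47 for SH3RF2 and 0.46 and −0.42 for DNM1. The fit kept the close −Glc libraries of experiment 2 separate and was not run with them summed. Summing them in the glucose tests gave 2282 called genes in place of 4813 in KMT2D-KO cells. In KMT2D-WT cells it gave 1 in place of 2536.

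The lines KO1 and KO2 differed in the level of many members. In the 4 +Glc KMT2D-KO libraries, with experiment as a covariate, 19 of 124 members were higher and 38 lower in KO2 than in KO1 at an edgeR adjusted p under 0.05, where 12.6% of the 19041 genes tested were higher and 11.4% lower. The rule asked that both lines exceed KMT2D-WT and did not compare them, although its limits bound how far a member can fall in 1 line. The median log2 difference was −0.21 for the members and 0.02 for all genes tested. KMT2D itself was lower in KO1, with 189 and 196 CPM against 324 and 376 CPM in KO2, and its part in the difference was not tested. Scaling by library totals gave 1919 genes higher and 3019 lower in KO2, in place of 2399 and 2175, and 18 members higher and 41 lower. The line test held 1 library per line and experiment, so few residual degrees of freedom were left to measure spread. Some of its libraries were counted by both mates, and the line test was not run with those counts halved. Its very small adjusted p-values, given below, may therefore overstate how firm the differences are.

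The members lower in KO2 included a traffic protein, a receptor, and a GTPase. MAL2, a protein of transcytosis in epithelia, had 16.3 and 35.5 CPM in KO1 and 2.72 and 6.53 CPM in KO2, a log2 difference of −2.41 ± 0.14 (SE; edgeR adjusted p = 1.1e-16). NRP1 had 17.7 and 23.2 CPM in KO1 and 3.99 and 4.14 CPM in KO2, a log2 difference of −2.29 ± 0.15 (SE; edgeR adjusted p = 5.18e-15). RRAGD had 4.21 and 5.97 CPM in KO1 and 0.827 and 0.769 CPM in KO2, a log2 difference of −2.67 ± 0.29 (SE; edgeR adjusted p = 3.78e-09). In all 3 genes the lines did not overlap. SLC22A17, a transporter-like receptor of lipocalin, and DAB2 differed by −1.84 and −1.83 on the log2 scale, with edgeR adjusted p of 2.72e-05 and 8.39e-07.

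TMEM52B, a membrane protein, had the largest difference toward KO2. It had 2.94 and 2.39 CPM in KO1 and 22.1 and 26.0 CPM in KO2, a log2 difference of 3.33 ± 0.16 (SE; edgeR adjusted p = 5.2e-19). TMEM255A, POF1B, PTN, and CYP1A1 were higher in KO2 by 1.79, 1.59, 1.19, and 1.06 on the log2 scale, with edgeR adjusted p of 1.15e-08, 0.00571, 2.49e-05, and 0.00266. POF1B, an actin-binding protein, had 0.702 and 0.727 CPM in KO1 and 0.632 and 3.27 CPM in KO2, so its lines overlapped and differed in experiment 2. LPCAT2 was higher in KO2 by 0.50 ± 0.14 on the log2 scale (SE; edgeR adjusted p = 0.00752). With DESeq2 the calls of LPCAT2 and CYP1A1 were lost, at adjusted p of 0.147 and 0.0853, and POF1B had no adjusted p. Without the doubted pair, in the 6 other KMT2D-KO libraries, the calls of LPCAT2 and POF1B were lost.

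The −Glc libraries of experiment 1, which this test did not use, gave the lines in much the same order. All 25 members with a called difference of at least 2-fold kept their direction there, as did 49 of all 57 called members. In experiment 2 without glucose 12 of the 25 had that direction by the labels. The library labelled KO1 in that condition lay nearer to KO2 than to KO1 of experiment 1 for 23 of the 25, and the library labelled KO2 also for 23. NRP1 had 17.2 and 4.53 CPM in the −Glc libraries labelled KO1 and 2.95 and 3.56 CPM in those labelled KO2, in the order of the experiments. The library labelled KO1 without glucose in experiment 2 thus went against its label in these genes. DESeq2 called 6 members higher and 20 lower in KO2, beside 1569 and 1114 of 19041 genes. In the 6 libraries without the doubted pair edgeR called 5 and 21, beside 299 and 591 of 16232. With all 8 libraries by their labels, or without experiment as a covariate, edgeR called 0 members and 0 genes. At an unadjusted p under 0.05 these 2 fits had 31 and 22 members, beside 1676 of 16057 and 781 of 19041 genes.

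The members were long genes. Their median span from the first to the last annotated base was 111.3 kb, against 30.9 kb for all genes with at least 0.5 CPM in all KMT2D-KO libraries. A span of at least 100 kb was found in 68 of 124 members (54.8%) and in 18.4% of those genes. Between the level quartiles of the members, 2.06 and 7.63 CPM, the median was 131.7 kb for 62 members and 22.3 kb for 2095 other genes. Exonic length, which sets how many reads a gene gives, differed less, with medians of 6.42 and 5.12 kb. ROBO1 and CDH12 were the longest, with spans of 1171 and 1103 kb. LPCAT2 spans 77.6 kb and DLX5 4.55 kb.

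**Figure D5:**
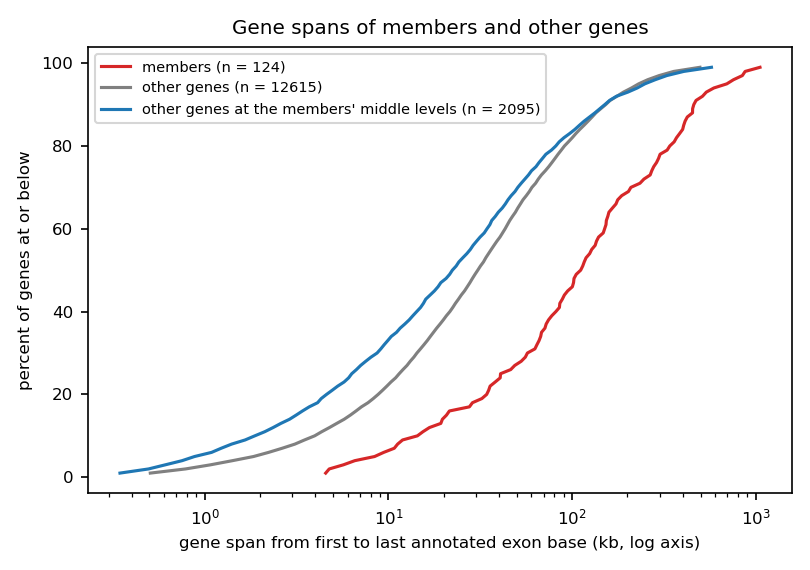
Percent of genes with a span at or below the value on the horizontal axis (kb, log axis) for the 124 members (red), the 12615 other genes with at least 0.5 CPM in all KMT2D-KO libraries (gray), and the 2095 of these between the level quartiles of the members (blue). The curve of the members lies to the right, with a median of 111.3 kb against 22.3 kb for the genes at the middle levels.

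The members were spread over 19 chromosomes, with 12 each on chromosomes 1 and 6 and 11 on chromosome 3. Chromosomes 17, 19, 21, and 22 held none, although 795, 810, 112, and 295 of the genes at 0.5 CPM in all KMT2D-KO libraries lie there. The share of such genes that were members was 2.62% on chromosome 13 and 2.16% on chromosome X. Another member lay within 1 Mb of 14 of the 124 members (11.3%), and 10.2% of the other genes had a member within that distance. ATXN1 and GMPR are neighbors 3.56 kb apart on chromosome 6. EDA and FAM155B lie 83.6 kb apart on chromosome X, and EDA rose while FAM155B fell without glucose. AL445647.1 and MIR4500HG lie 133 kb, BACH2 and RRAGD 514 kb, LPCAT2 and GNAO1 605 kb, SLC4A4 and ADAMTS3 709 kb, and DLX5 and DYNC1I1 910 kb apart.

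Some genes next to members were also higher in every KMT2D-KO library. Of the 238 nearest expressed neighbors that were no members, 25 (10.5%) had every KMT2D-KO value above every KMT2D-WT value. The share was 3.07% of all 16354 expressed genes that were no members, these neighbors included. Every KMT2D-KO value was below every KMT2D-WT value in 8 (3.36%), against 7.01%. Reads were counted without regard to strand, so reads in exonic bases that overlapping genes share cannot be told apart. Among the 217 neighbors that do not overlap the member 21 (9.68%) were higher. RUBCNL, 122.8 kb from LCP1, had a median of 0 CPM in KMT2D-WT and 1.87 CPM in KMT2D-KO libraries. OLR1, the lectin-like receptor of oxidized LDL, had medians of 10.4 CPM in KMT2D-WT and 143.6 CPM in KMT2D-KO libraries. Its span overlaps that of TMEM52B, which shares no exonic base with another gene.

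The promoter windows of the members were compared with those of other genes. Windows of 250 bases before to 50 after the canonical start of GENCODE 44 were read for 122 of 124 members and for 11998 of 12615 other genes that reached 0.5 CPM in all KMT2D-KO libraries. A window was called CpG-rich with a GC content of at least 50% and an observed over expected CpG ratio of at least 0.6. Of the members' windows 70.5% were CpG-rich, against 84.7% of the other genes. Between the level quartiles of the members the difference was gone, with 73.8% of the members and 71.5% of the other genes. CYBB with 1, LCP1 with 2, and GJA1 with 3 CpG were among the poor starts, and SLC4A4 with 45, ICA1 with 43, and KCNK5 with 39 among the rich.

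Motifs were searched as letters on both strands of these windows. TATAAA was in 8.20% of the members' and 5.32% of the other genes' windows, CCAAT in 31.1% and 36.2%, GGGCGG in 67.2% and 73.7%, and TGANTCA in 4.92% and 3.97%. CACGTG was in 3.28% and 10.0%, and CCGGAAG in 4.10% and 19.8%. Between the level quartiles of the members, CACGTG was in 3.28% of their and 7.84% of the other genes' windows, and CCGGAAG in 4.92% and 13.1%. In the promoters printed above, GGGCGG is held by GALNT14, KCNK5, ELAVL2, and LCP1. The motif TATAAA is held by ELAVL2 and LCP1, the motif CCAAT by ELAVL2, and TGANTCA by GJA1. A match describes the letters and no test was made.

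Fewer libraries have to meet the rule within a single experiment, so the sets are larger by construction. With experiment 1 alone 177 genes met the rule and with experiment 2 alone 164, and 132 met it in both, 74.6% of the former and 80.5% of the latter. In experiment 2 1.22% of the 13419 genes with at least 0.5 CPM in all its KMT2D-KO libraries met the rule. The highest over the lowest CPM of a member among the 8 KMT2D-KO libraries had a median of 3.05. It was within 2-fold for 25 members and over 5-fold for 21, with HLA-DQB1 at 13.1 and MAL2 at 13.0 at the wide end. HLA-DQB1 has close copies and alleles that differ from the reference, so its reads are uncertain.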

How the data were processed

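RNA-seq libraries of SCC23 cells (14 in all) were analysed from the count tables deposited by the authors, in whole-number counts per gene. Per the file headers, the authors counted reads with featureCounts 2.0.3 against Ensembl 102 on GRCh38 without regard to strand; reads had been aligned with HISAT2. Both mates were counted in 4 libraries and single reads in 10. Deposited counts per library, 15669154 to 62968057, set the precision of low values.

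Samples were grouped by their labels into KMT2D-WT and KMT2D-KO with and without glucose. Members were found from CPM by the rule given above. The members, gene lists, and roles were chosen with earlier results of these data known. Counts were tested with edgeR 4.0.16 (R 4.3.3; quasi-likelihood test, TMM factors, filterByExpr with a minimum count of 10, Benjamini-Hochberg adjustment over all genes tested, threshold 0.05) with experiment as a covariate; SE is the log2 change over the square root of F. DESeq2 1.42.0 was an alternative. Replicate numbers follow accession order and pair nothing, and the experiment, named in the labels, was used as the block. Genes were named by a rule: the 10 highest medians, members with no KMT2D-WT count, the 5 largest called changes in each direction by glucose and by line, those nearest the limits, members within 1 Mb of another, and members on a list. RUNX3, GJA1, ICA1, CYBB, SYTL3, and HLA-DQB1 are given values outside it and were chosen after their values were seen. Some members are not reported here by name. The test was checked on simulated counts with 200 changed genes: for glucose in KMT2D-KO cells (16057 genes) it found 34.4% of 2-fold and 69.8% of 4-fold changes with 8.07% false calls, for KMT2D-WT cells (17227 genes) 42.6%, 68.2%, and 10.0%, and for the lines (19041 genes) 65.6%, 82.8%, and 4.24%. Promoter features had been planned on RefSeq promoters, which covered 95 of 124 members, so windows at GENCODE 44 canonical starts were used. Python 3.11.15 and pandas 2.3.3 were used.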

Additional observations from a re-analysis of the deposited data

Results flagged for a closer look

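In 62 named members and the 2 KMT2D-KO groups by glucose, 124 looks were made. In 8 of them 1 library was far from the other 3 by Dixon's criterion. About 1 in 20 looks meet it if the libraries of a group differ by chance alone, but these groups mix lines and experiments. In 6 of the 8 the library was KO1 without glucose in experiment 1, as the highest: SRPX2 with 33.5 CPM (next 20.2), NRP1 with 17.2 CPM (next 4.53), SLC22A17 with 4.48 CPM (next 1.45), SPX with 3.37 CPM (next 1.30), KCNC4 with 3.65 CPM (next 1.60), and PCDHB16 with 4.59 CPM (next 2.08). That library also had the lowest KMT2D level of all, 17.5 CPM. If both −Glc KMT2D-KO libraries of experiment 2 are KO2, it is also the only KO1 library of its group. The parts of line and of KMT2D level in these values were not tested and cannot be told apart here. POF1B was high in KO2 with glucose in experiment 2, at 3.27 CPM (next 0.727). ROR1 was low in KO2 without glucose in experiment 1, at 1.40 CPM (next 2.67).

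By edgeR's test of the difference, the log2 change without glucose was higher in KMT2D-KO than in KMT2D-WT cells in 4 members. These were DNM1 (0.91 on the log2 scale), FGFR4 (0.77), SH3RF2 (1.26), and ATXN1 (1.93). Each had a negative log2 change in KMT2D-WT cells, where none was called. The test was not run with the close libraries summed.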

How the results depend on the processing

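The rule was met by 97 to 177 genes under all alternatives but the −Glc libraries alone, which gave 194. Leaving out 1 library gave 124 to 131. Settings that use fewer libraries keep every member by construction, so their counts cannot fall below 124 and do not show stability. For glucose in KMT2D-KO cells, 12 members and 4813 genes were called. Without a replicate block these were 4 and 1465, with experiment 1 alone 0 and 0, with experiment 2 alone 28 and 9743, with the libraries labelled KO2 alone 0 and 0, and with the close libraries summed 6 and 2282. Library totals gave 19 members and 4898 genes, and DESeq2 21 and 7051. Leaving out 1 library gave 4 to 20 members and 1991 to 6553 genes. With a replicate block of experiment and line 17 members and 4928 genes were called. For KMT2D-WT cells, 1 member and 2536 genes were called. Without the filter these were 2 and 5560, with DESeq2 3 and 6213, without a replicate block 0 and 2, with experiment 2 alone 10 and 8960, and with the close libraries summed 0 and 1. Library totals gave 0 members, a 1.5-fold limit 1002 genes, and leaving out 1 library 0 to 10 members and 0 to 8747 genes. For the lines, 57 members and 4574 genes were called. DESeq2 gave 26 and 2683, no replicate block 0 and 0, all 8 libraries by label 0 and 0, and leaving out the doubted pair 26 and 890. For single named members over all alternatives, a call was lost 79 times and gained 26 times for glucose in KMT2D-KO cells, 8 and 25 times in KMT2D-WT cells, and 95 and 3 times between lines, and no called value changed sign. KMT2D-WT experiment 1 alone and leaving out single libraries of the line test were not run, since no residual degrees of freedom remain. Depth limits statements on silence to 0.141 CPM in the shallowest KMT2D-WT library. The causes of these changes were not tested.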
